A study of Mus musculus with 6 samples.

Results

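The 34 genes described here carry out the last part of the cell cycle. They encode the proliferation marker Ki-67 and DNA topoisomerase II alpha, the mitotic cyclins with their kinase Cdk1, the Aurora, Polo-like and checkpoint kinases, the chromosomal passenger proteins, kinetochore and spindle proteins, activators of mitotic ubiquitination, and the proteins that close the cleavage furrow. They were taken by name from the gene table, whatever their level, and all 34 were among its 26881 genes. Their level was measured by RNA-seq in whole hearts of 2-week-old C57BL/6 mice, in 3 Cfp1-cKO hearts labelled CXXC1 null and 3 WT hearts labelled Wild-type. Cfp1-cKO animals carried Myh6-Cre and Cfp1 flox/flox alleles, so that Cxxc1, the gene of the CpG-binding protein Cfp1, was to be deleted in the cells in which the Myh6 promoter is active, the cardiomyocytes. Which Cre or flox alleles the WT animals carried was not given for these libraries. Nothing stated whether a library came from 1 heart or from pooled hearts, and p-values measure the spread between these libraries only.

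In proliferating cells these genes are switched on together in G2 and M phase and are silenced when cells leave the cycle. Their promoters are known for a CHR element, which is read by the DREAM and MuvB complexes, and for CCAAT boxes, which are bound by NF-Y. Mouse cardiomyocytes stop dividing in the weeks around and after birth, whereas fibroblasts, endothelial cells and blood cells of the heart can go on dividing. A level in bulk heart RNA therefore joins all these cells, and more cells of a dividing type cannot be told apart from more RNA per cell.

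The libraries held 16672652 to 19481847 fragments in Cfp1-cKO hearts and 18007474 to 22700811 in WT hearts. Values were FPKM, fragments scaled by exon length and library size. For a transcript of 2 kilobases, 1 fragment was worth 0.022 to 0.030 FPKM, which sets the precision of the low values below. Cxxc1 itself stood at 8.02, 9.94 and 8.74 FPKM in Cfp1-cKO hearts 1 to 3, against 9.66, 12.9 and 10.03 FPKM in WT hearts 1 to 3, a log2 difference of -0.26 ± 0.16 (SE) that did not pass the test (limma, adjusted p = 0.249), and Cfp1-cKO heart 2 was above WT heart 1. After median-of-ratios scaling the difference was -0.66 (adjusted p = 0.0571), and hearts are called Cfp1-cKO by their label. The deleted exons cannot be read from a gene-level value. Cardiomyocyte markers were present in every library, at a summed 8789 to 11872 FPKM in Cfp1-cKO hearts and 10213 to 17585 FPKM in WT hearts. Of 12 markers of alveolar and airway epithelium, most of which a heart should lack, surfactant protein C (Sftpc) reached 1202 to 3232 FPKM in Cfp1-cKO hearts, against 0, 0.330 and 0 FPKM in WT hearts 1 to 3, and the 12 summed to 3214 to 4890 FPKM in Cfp1-cKO and 80.3 to 106 FPKM in WT hearts, where Hopx, which the heart also expresses, made up most of the sum. The median of the 12 was 36.9, 43.4 and 73.6 FPKM in Cfp1-cKO hearts 1 to 3, and no marker had its highest value in heart 2. The share of this tissue in the values below was not tested.

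Every one of the 34 genes had its highest value in Cfp1-cKO heart 2. The median of the 34 was 0.559, 3.97 and 0.417 FPKM in Cfp1-cKO hearts 1 to 3, against 0.251, 0.0769 and 0.367 FPKM in WT hearts 1 to 3. Their sum was 21.4, 148 and 16.7 FPKM in Cfp1-cKO hearts, against 9.05, 5.23 and 14.0 FPKM in WT hearts. Cfp1-cKO heart 2 thus stood 6.94-fold above heart 1 and 8.89-fold above heart 3 of its own genotype, while Cfp1-cKO heart 3 stood 1.19-fold above WT heart 3. The last order turned round after median-of-ratios scaling, with a sum of 13.5 in Cfp1-cKO heart 3, against 15.3 in WT heart 3. All 34 genes exceeded 1 FPKM in Cfp1-cKO heart 2, against 6 in heart 1 and 2 in heart 3 of that genotype, and 0, 0 and 1 in WT hearts 1 to 3. Over the 11017 genes that averaged 1 FPKM or more over the 6 libraries, 34.2% had their highest value in Cfp1-cKO heart 2, and 34.7% in Cfp1-cKO heart 3.

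**Figure D1:**
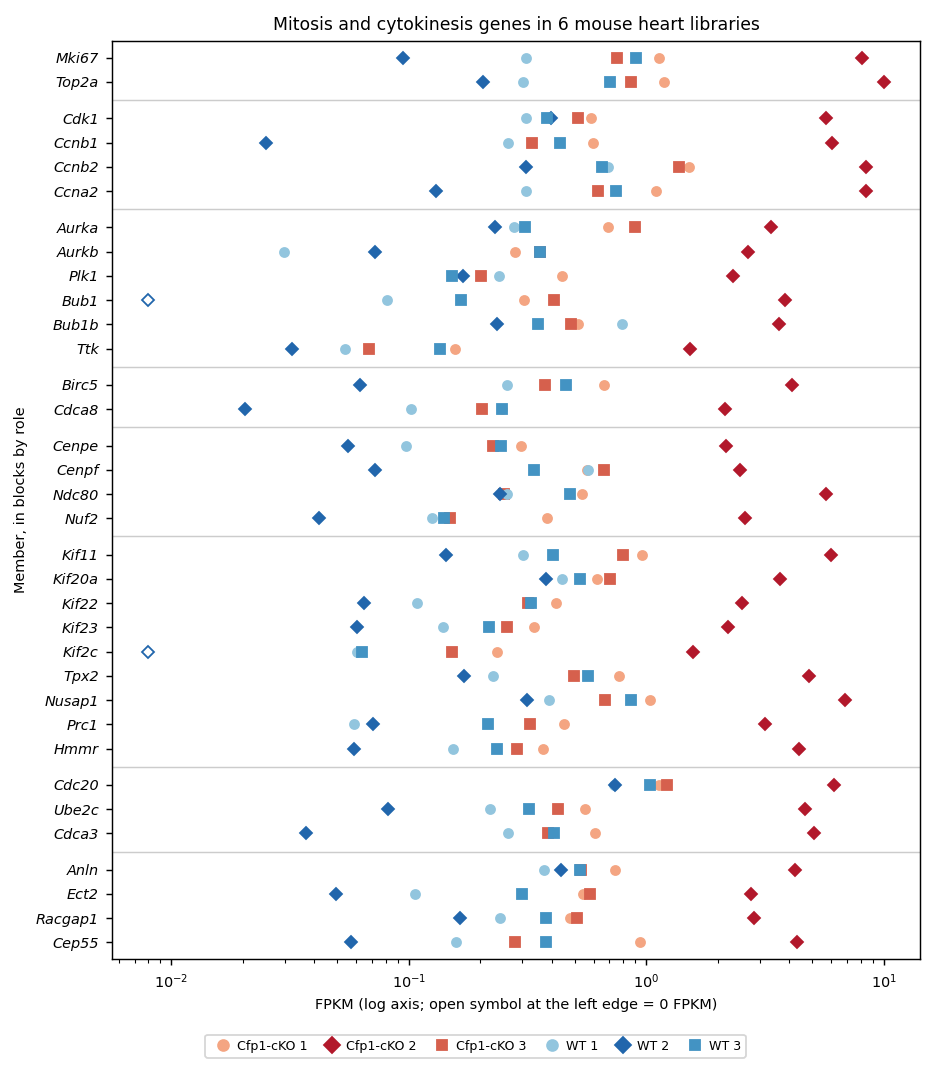
FPKM of each of the 34 genes (log axis) in 3 Cfp1-cKO hearts (red) and 3 WT hearts (blue), 1 symbol per library, with open symbols for 0 FPKM; grey lines part the genes by role. The dark red symbols of Cfp1-cKO heart 2 lie between 1.52 and 9.99 FPKM, to the right of the other 5 libraries in every row.

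The other 5 libraries also differed among themselves. Cfp1-cKO heart 1 held the next highest value for 25 of the 34 genes and Cfp1-cKO heart 3 for 7. No share over all genes was computed for this rank. WT heart 2 held the lowest value for 28 of the 34, and it was also the lowest library for 42.2% of the 11017 genes. Cfp1-cKO heart 1 was above WT heart 3 in 33 of 34 genes, beside 70.01% of the 11017 genes. Cfp1-cKO heart 3 was above WT heart 3 in 20 of 34, a smaller share than the 85.8% of those genes. WT heart 3 was above WT heart 2 in 32 of 34, beside 59.9% of those genes. The summed level was 1.28-fold higher in Cfp1-cKO heart 1 than in heart 3, and 2.67-fold higher in WT heart 3 than in WT heart 2. The highest library held 12462 fragments of the 34 genes, or 747 per 1000000 fragments (734 to 761, exact Poisson 95% interval). The other Cfp1-cKO hearts held 108 (103 to 112) and 84.7 (80.5 to 89.1) per 1000000, and the WT hearts 46.3 (43.6 to 49.2), 24.1 (21.9 to 26.4) and 71.2 (67.3 to 75.2). No interval of 1 library reached that of another, and the intervals cover counting error only.

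The members were chosen by name, and promoters of such genes are already known for CHR and CCAAT letters, so the matches below are a description only. The sequences shown lie just before the transcription start. They are RefSeq promoter sequences of GRCm38.p6 on the gene's strand, read 5′ to 3′, and 30 of the 34 genes had an entry; Tpx2, Ccna2, Aurkb and Kif20a had none. Capitals mark matches to the CHR, which was searched on both strands as TTTGAA, on the other strand read as TTCAAA, and as the palindrome TTCGAA. They also mark the CCAAT box, which reads ATTGG when it lies on the other strand. The 7 shown span the roles of the set and end at the RefSeq start, or before the start given in the gene table where that lies further out.
Mki67 (chr7:135716380-135716529, minus strand): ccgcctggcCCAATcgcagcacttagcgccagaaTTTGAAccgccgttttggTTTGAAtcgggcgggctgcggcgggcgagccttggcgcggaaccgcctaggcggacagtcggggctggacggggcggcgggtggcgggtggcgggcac
Top2a (chr11:99024190-99024339, minus strand): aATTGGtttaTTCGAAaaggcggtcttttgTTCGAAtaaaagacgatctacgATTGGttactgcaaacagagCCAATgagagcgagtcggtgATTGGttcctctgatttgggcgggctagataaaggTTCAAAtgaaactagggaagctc
Cdk1 (chr10:69352939-69353062, minus strand): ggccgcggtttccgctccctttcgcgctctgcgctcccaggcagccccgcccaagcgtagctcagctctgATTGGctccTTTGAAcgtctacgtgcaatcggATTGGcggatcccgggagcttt
Ccnb2 (chr9:70421555-70421704, minus strand): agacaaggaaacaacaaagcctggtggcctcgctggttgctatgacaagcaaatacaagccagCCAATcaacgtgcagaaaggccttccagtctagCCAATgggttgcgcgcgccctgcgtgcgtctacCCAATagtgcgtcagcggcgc
Cenpf (chr1:189688087-189688236, minus strand): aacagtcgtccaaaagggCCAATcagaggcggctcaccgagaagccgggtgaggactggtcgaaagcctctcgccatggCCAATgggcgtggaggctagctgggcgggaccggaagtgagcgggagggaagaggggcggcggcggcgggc
Kif11 (chr19:37376232-37376381, plus strand): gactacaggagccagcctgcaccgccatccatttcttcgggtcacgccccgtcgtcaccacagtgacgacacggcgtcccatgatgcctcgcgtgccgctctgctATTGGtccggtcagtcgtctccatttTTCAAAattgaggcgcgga
Cdc20 (chr4:118437353-118437493, minus strand): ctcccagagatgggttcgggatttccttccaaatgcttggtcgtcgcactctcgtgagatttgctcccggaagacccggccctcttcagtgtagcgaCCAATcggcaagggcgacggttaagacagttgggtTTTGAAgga
The Mki67 stretch holds 1 CCAAT and 2 CHR matches, and the Top2a stretch holds 4 CCAAT and 3 CHR matches. In Kif11, ATTGG begins 45 bases and TTCAAA 19 bases before the start, and in Cdc20, CCAAT begins 53 bases and TTTGAA 18 bases before it. Ccnb2 and Cenpf show CCAAT letters only in these stretches.

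Over the window of 300 bases that runs from 250 bases before to 50 bases after the start, 25 of 30 members held a CHR match (83.3%), against 19.4% of all 27025 gene promoters in the table. CCAAT letters stood in 23 of 30 members (76.7%), against 37.9% of all promoters, and at least 2 CCAAT matches in 16 of 30 (53.3%), against 12.2%. Both motifs were present in 21 of 30 (70.0%), against 7.70% of all promoters, and in 1 member a CHR and a CCAAT match shared a base. Nuf2, Nusap1 and Birc5 held neither. The E2F letters TTTCCCGC, TTTGGCGC, TTTCGCGC and TTTGCCGC, on either strand, were found only in Cdk1, 1 of 30 (3.33%), against 2.32% of all promoters. The ratio of observed to expected CpG, of interest because Cfp1 binds CpG through its CXXC zinc finger, had a median of 0.883 in the members, against 0.388 in all promoters, with the lowest value in Kif2c (0.118) and the highest in Ndc80 (1.11). No ratio was computed over genes expressed in these hearts or over the other cell cycle lists, so it is not shown to be particular to the members. A match is a description of the letters and not a measured binding site, and no p is given, since the windows of a family read by shared factors are not independent.

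**Figure D2:**
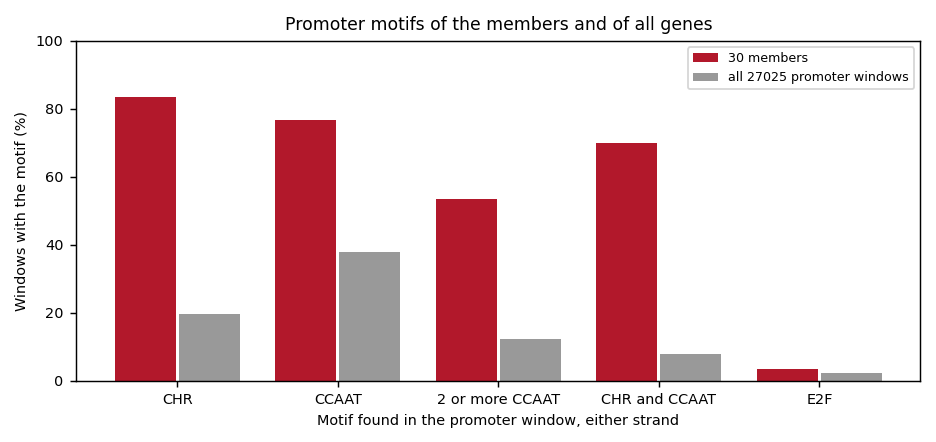
Share of promoter windows of 300 bases (%) that hold each motif on either strand, for 30 members (red) and all 27025 gene promoters (grey). CHR and CCAAT letters stand together in 70.0% of the members and in 7.70% of all promoters, while E2F letters are rare in both.

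For the proliferation marker and the topoisomerase, Cfp1-cKO heart 2 supplied most of the Cfp1-cKO sum. Mki67 (chromosome 7, 135689784 to 135716361), whose protein coats mitotic chromosomes, had 1.13, 8.07 and 0.750 FPKM in Cfp1-cKO hearts 1 to 3, against 0.311, 0.0949 and 0.905 FPKM in WT hearts 1 to 3. WT heart 3 was thus above Cfp1-cKO heart 3, and the groups overlapped. The means were 3.31 ± 4.12 FPKM in Cfp1-cKO hearts and 0.437 ± 0.420 FPKM in WT hearts (SD, n = 3 each). Top2a (chromosome 11, 98992943 to 99024189), which untangles sister DNA, had 1.19, 9.99 and 0.862 FPKM in Cfp1-cKO hearts, against 0.303, 0.206 and 0.702 FPKM in WT hearts. Here all Cfp1-cKO hearts were above all WT hearts, as in 44.4% of all genes that averaged 0.1 FPKM or more. Cfp1-cKO heart 3 exceeded WT heart 3 by less than the WT hearts differed among themselves. The log2 difference was 1.36 ± 0.59 (SE) for Top2a and 1.21 ± 0.56 for Mki67, and neither passed (limma, adjusted p = 0.114 for Top2a and 0.131 for Mki67).

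Cdk1, the kinase that drives entry into mitosis, had 0.583, 5.70 and 0.518 FPKM in Cfp1-cKO hearts 1 to 3, against 0.312, 0.398 and 0.383 FPKM in WT hearts 1 to 3. The groups did not overlap, and without Cfp1-cKO heart 2 the 2 other Cfp1-cKO hearts averaged 1.51-fold the WT mean. Ccnb1, the cyclin B that activates Cdk1, had 0.596, 6.04 and 0.329 FPKM in Cfp1-cKO hearts, against 0.261, 0.0252 and 0.435 FPKM in WT hearts. The lowest of these values rested on 2 fragments. Ccnb2, another B-type cyclin, had 1.51, 8.38 and 1.38 FPKM in Cfp1-cKO hearts, against 0.691, 0.312 and 0.653 FPKM in WT hearts, so that each Cfp1-cKO heart was at least at 1.38 FPKM and no WT heart above 0.691 FPKM. It had the lowest adjusted p of the tested members (log2 difference 1.31 ± 0.48 SE, limma, adjusted p = 0.0732) and the largest log2 difference without Cfp1-cKO heart 2, 0.66 ± 0.20 (adjusted p = 0.0933). Ccna2, cyclin A of S and G2 phase, had 1.09, 8.40 and 0.625 FPKM in Cfp1-cKO hearts, against 0.313, 0.130 and 0.748 FPKM in WT hearts, and the groups overlapped. A pseudogene, Ccnb2-ps, had 0.581, 1.04 and 0.604 FPKM in Cfp1-cKO hearts and 0.441, 0.116 and 0.508 FPKM in WT hearts, and reads shared with it could move between both.

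Among the mitotic kinases, Aurka differed least within the Cfp1-cKO group. Aurora A, which it encodes and which matures the spindle poles, had 0.690, 3.34 and 0.899 FPKM in Cfp1-cKO hearts 1 to 3, against 0.278, 0.231 and 0.307 FPKM in WT hearts 1 to 3. Its lowest Cfp1-cKO value was more than any WT value, and heart 2 was 3.72-fold above the next library, the smallest such ratio of the 34. Aurkb, the kinase of the chromosomal passenger complex, had 0.279, 2.69 and 0.358 FPKM in Cfp1-cKO hearts, against 0.0299, 0.0720 and 0.358 FPKM in WT hearts. Plk1, Polo-like kinase, had 0.444, 2.32 and 0.202 FPKM in Cfp1-cKO hearts, against 0.240, 0.169 and 0.152 FPKM in WT hearts. Both groups overlapped for these kinases. Ttk, which starts the spindle checkpoint, had the lowest mean over the 6 libraries of the 34, with 0.157, 1.52 and 0.0677 FPKM in Cfp1-cKO hearts and 0.0537, 0.0324 and 0.135 FPKM in WT hearts.

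The checkpoint pair behaved differently in the WT hearts. Bub1, a kinetochore kinase, had 0.307, 3.83 and 0.408 FPKM in Cfp1-cKO hearts, against 0.0809, 0 and 0.166 FPKM in WT hearts. A count of 0 in WT heart 2 allows up to 3 fragments, or 0.0366 FPKM. Bub1b, which encodes the checkpoint protein BubR1, had 0.516, 3.63 and 0.480 FPKM in Cfp1-cKO hearts, against 0.793, 0.236 and 0.351 FPKM in WT hearts. It was the only member of the set with WT heart 1 next after Cfp1-cKO heart 2, and hearts 1 and 3 of the Cfp1-cKO group averaged 1.08-fold the WT mean, the smallest such ratio. The passenger proteins survivin (Birc5) and borealin (Cdca8) overlapped between groups. Birc5 had 0.664, 4.11 and 0.375 FPKM in Cfp1-cKO hearts and 0.259, 0.0624 and 0.457 FPKM in WT hearts. Cdca8 had 0.248, 2.15 and 0.204 FPKM in Cfp1-cKO hearts and 0.102, 0.0205 and 0.247 FPKM in WT hearts.

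At the kinetochore, the 2 partners of the Ndc80 complex differed in how far the highest heart stood out. Ndc80 had 0.536, 5.72 and 0.252 FPKM in Cfp1-cKO hearts 1 to 3, against 0.260, 0.241 and 0.479 FPKM in WT hearts 1 to 3. Cfp1-cKO heart 2 was 14.5-fold above the mean of hearts 1 and 3 of its genotype, the largest such ratio of the 34, and those hearts averaged 1.21-fold the WT mean. Nuf2 had 0.38, 2.60 and 0.149 FPKM in Cfp1-cKO hearts, against 0.125, 0.0418 and 0.140 FPKM in WT hearts, a ratio of 9.83 for heart 2. Cenpf had the smallest such ratio, 4.04, with 0.565, 2.48 and 0.662 FPKM in Cfp1-cKO hearts and 0.571, 0.0722 and 0.338 FPKM in WT hearts. Cenpe, a kinetochore motor, had 0.298, 2.17 and 0.225 FPKM in Cfp1-cKO hearts, against 0.0971, 0.0554 and 0.245 FPKM in WT hearts. Of these 4 genes Nuf2 alone showed no overlap between the groups. Its lowest Cfp1-cKO value rested on 17 fragments, against 18 and 16 fragments in WT hearts 1 and 3.

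The groups overlapped for some spindle genes and not for others. In 44.4% of all genes that averaged 0.1 FPKM or more, all Cfp1-cKO hearts were above all WT hearts. Kif11, the motor that pushes spindle poles apart, had 0.959, 5.99 and 0.795 FPKM in Cfp1-cKO hearts, against 0.302, 0.143 and 0.403 FPKM in WT hearts, without overlap (log2 difference 1.19 ± 0.47 SE, limma, adjusted p = 0.0887). Hmmr, a spindle assembly factor, had 0.369, 4.40 and 0.286 FPKM in Cfp1-cKO hearts, against 0.154, 0.0586 and 0.235 FPKM in WT hearts, and its value in Cfp1-cKO heart 2 was 11.9-fold that of the next library, the largest such ratio of the 34. Kif2c, which takes apart microtubule ends, was at 0 in WT heart 2, a count that allows up to 0.0365 FPKM, and had 0.235, 1.57 and 0.153 FPKM in Cfp1-cKO hearts, against 0.0606 and 0.0636 FPKM in WT hearts 1 and 3. Prc1, which bundles the central spindle, had 0.449, 3.16 and 0.324 FPKM in Cfp1-cKO hearts, against 0.0589, 0.0710 and 0.216 FPKM in WT hearts. Neither Kif2c nor Prc1 overlapped between the groups.

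Nusap1 and Tpx2, which build microtubules around chromosomes, overlapped. Nusap1 had 1.04, 6.87 and 0.670 FPKM in Cfp1-cKO hearts and 0.391, 0.314 and 0.862 FPKM in WT hearts. Tpx2 had 0.768, 4.82 and 0.498 FPKM in Cfp1-cKO hearts and 0.226, 0.17 and 0.570 FPKM in WT hearts. The kinesins of the central spindle, Kif20a and Kif23, did not overlap, and the chromosome-arm motor Kif22 did. Kif22 had 0.419, 2.53 and 0.317 FPKM in Cfp1-cKO hearts, against 0.108, 0.0649 and 0.328 FPKM in WT hearts. Kif20a had 0.622, 3.67 and 0.702 FPKM in Cfp1-cKO hearts, against 0.441, 0.377 and 0.527 FPKM in WT hearts, and Kif23 had 0.338, 2.22 and 0.260 FPKM, against 0.139, 0.0604 and 0.218 FPKM in WT hearts.

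The genes of mitotic ubiquitination gave 3 degrees of the same picture. Cdc20, the activator of the anaphase-promoting complex, had 1.13, 6.16 and 1.22 FPKM in Cfp1-cKO hearts 1 to 3, against 0.731, 0.738 and 1.04 FPKM in WT hearts 1 to 3. It kept the highest WT level of the set in WT hearts 2 and 3, and Cfp1-cKO hearts 1 and 3 averaged 1.40-fold the WT mean. Ube2c, the ubiquitin-conjugating enzyme of that complex, had 0.553, 4.66 and 0.427 FPKM in Cfp1-cKO hearts, against 0.220, 0.0816 and 0.320 FPKM in WT hearts, without overlap. Cdca3, a trigger of mitotic entry, had 0.609, 5.06 and 0.387 FPKM in Cfp1-cKO hearts, against 0.261, 0.0370 and 0.407 FPKM in WT hearts, and overlapped. Cdc20 overlaps Elovl1 on the other strand, which had 17.5 to 30.3 FPKM in Cfp1-cKO and 5.97 to 8.68 FPKM in WT hearts. Ccna2, Kif20a, Nusap1 and Prc1 also overlap a protein-coding gene on the other strand, and without a stated strand setting such reads cannot be told apart.

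In cytokinesis, Ect2, which is needed for the cleavage furrow, had 0.543, 2.75 and 0.577 FPKM in Cfp1-cKO hearts, against 0.106, 0.0493 and 0.299 FPKM in WT hearts. Hearts 1 and 3 of the Cfp1-cKO group averaged 3.70-fold the WT mean, and no WT heart reached them. Its partner Racgap1 had 0.479, 2.85 and 0.510 FPKM in Cfp1-cKO hearts, against 0.243, 0.165 and 0.377 FPKM in WT hearts, also without overlap. Anln, a scaffold of the contractile ring, had 0.736, 4.22 and 0.533 FPKM in Cfp1-cKO hearts, against 0.369, 0.439 and 0.527 FPKM in WT hearts, so that Cfp1-cKO heart 3 and WT heart 3 were nearly equal. Cep55, needed for the final cut between daughter cells, had 0.942, 4.30 and 0.280 FPKM in Cfp1-cKO hearts, against 0.159, 0.0573 and 0.38 FPKM in WT hearts, and overlapped.

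Across the set, heart 2 supplied 66.9% to 87.9% of the summed level of each gene over the 3 Cfp1-cKO hearts (median 80.1%). The ratio of Cfp1-cKO hearts 1 and 3 to the WT mean had a median of 2.098 and ran from 1.08 in Bub1b to 4.68 in Kif2c. All 3 Cfp1-cKO hearts were above all 3 WT hearts in 17 of 34 members, beside 44.4% of the 17691 genes that averaged 0.1 FPKM or more. Without Cfp1-cKO heart 2 the same 17 members kept this order, beside 47.3% of those genes. After median-of-ratios scaling, 8 of 34 (23.5%) did, beside 21.0% of those genes. Top2a, Cdk1, Kif20a, Kif23, Cdc20, Ube2c, Anln, Nuf2 and Hmmr lost this order under that scaling. The members' share was close to that of all genes each time.

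The comparison of Cfp1-cKO with WT hearts asked whether the genotype changed these genes, and no member passed. Of the 34 members, 17 averaged 1 FPKM or more and were tested, and 0 were called (limma, adjusted p below 0.05 and an absolute log2 difference above 0.5), beside 21.1% of all 11017 genes tested that were called higher. These 17 passed the minimum through Cfp1-cKO heart 2: without it, 0 of the 34 reached 1 FPKM on average. At an unadjusted p below 0.05 stood 3 of the 17, Top2a, Ccnb2 and Kif11, beside 43.8% of all genes tested. Voom on whole fragments called 0 of the 17, beside 23.4% of all genes called higher. With the minimum lowered to 0.1 FPKM, all 34 entered, and all 34 had a positive log2 difference, as did 84.5% of the 17691 genes. Of the 34, 0 were called, beside 14.9% of those genes called higher, with adjusted p (limma) from 0.0817 in Aurka to 0.305 in Bub1b. The median log2 difference of the 34 was 0.85, beside 0.29 over all genes tested.

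The same fit without Cfp1-cKO heart 2 gave the 34 members a median log2 difference of 0.25, beside 0.27 over all genes. The range was 0.05 in Ttk to 0.66 in Ccnb2, and all 34 stayed positive, beside 83.1% of all genes. Of the members, 0 were called, beside 4.0% of all genes called higher, with adjusted p (limma) from 0.0639 to 0.842. At an unadjusted p below 0.05 stood 9 of 34 members, beside 29.2% of all genes. The median standard error of the members was 0.12 without that heart, against 0.43 with it. These differences and errors are on log2(FPKM + 1), which understates changes of genes as low as the members. On FPKM itself, the ratio of Cfp1-cKO hearts 1 and 3 to the WT mean had a median of 2.098 in the members. No such ratio was computed over all genes. The median log2 difference over all genes was 0.35 in the main test over 11017 genes and 0.00 after median-of-ratios scaling. Under that scaling the tested members kept a median of 0.80 and 0 were called, beside 3.74% of all genes called higher. That scaling also moved the share of higher genes among all calls to 53.5%, against 92.6% in the main test.

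**Figure D3:**
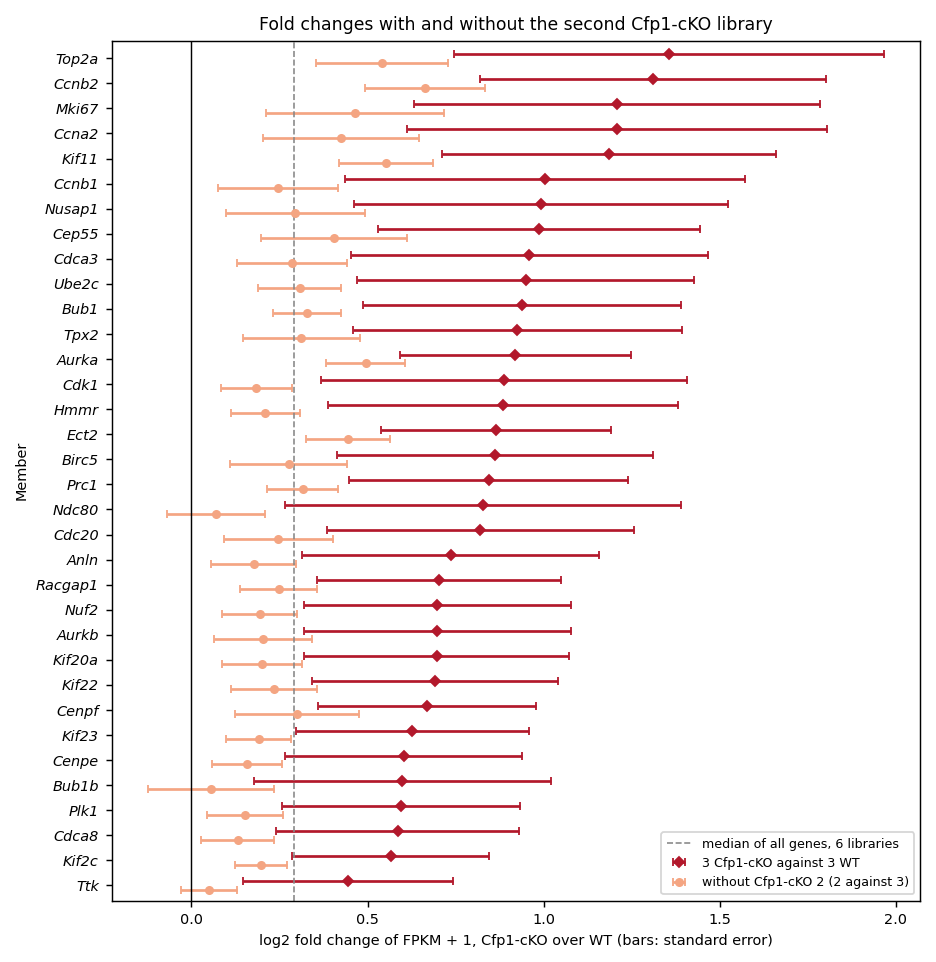
log2 difference of FPKM + 1 between Cfp1-cKO and WT hearts for each of the 34 genes, with its standard error, for all 6 libraries (diamonds) and without Cfp1-cKO heart 2 (circles); the dashed line is the median of all genes, 0.29. Differences between 0.45 and 1.36 with 6 libraries shrink to between 0.05 and 0.66.

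The call depended on how libraries were weighted. With weights estimated by limma, 16 of the 17 tested members were called higher, all but Bub1b, beside 36.6% of all genes tested, with adjusted p from 0.00840 in Ccnb2 to 0.124 in Bub1b. The weights were 0.566, 1.56 and 0.763 for Cfp1-cKO hearts 1 to 3, against 7.97, 0.303 and 0.615 for WT hearts 1 to 3, so that this result rested mostly on Cfp1-cKO heart 2 and WT heart 1. In the main test, leaving out any 1 library called 0 members, although without Cfp1-cKO heart 2 none was left to test.

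Other cell cycle lists shared the high value of Cfp1-cKO heart 2 to different degrees. Of 77 further genes of mitosis, 75 had their highest value in Cfp1-cKO heart 2, as did 42 of 43 genes of S phase. Of 26 subunits of the anaphase-promoting complex and cohesin, 11 did, of 23 regulators of mitotic transcription 15, and of 18 G1 cyclins, Cdks and inhibitors 12. These counts stand beside 34.8% of all genes that averaged 0.1 FPKM or more, a share near that of the anaphase-promoting complex and cohesin. The summed level of the S phase genes was 94.5, 198 and 96.6 FPKM in Cfp1-cKO hearts 1 to 3, against 87.0, 94.1 and 86.7 FPKM in WT hearts 1 to 3. Only the value of Cfp1-cKO heart 2 left the range of the others by a wide margin.

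The tests on these lists called 11 genes higher, and their counts are to be read beside the 21.1% of all genes tested that were called higher. In mitosis 1 of 27 tested genes rose, the phosphatase Cdc25b that activates Cdk1, with 1.23, 2.91 and 2.44 FPKM in Cfp1-cKO hearts, against 0.473, 0.541 and 0.626 FPKM in WT hearts (log2 difference 1.01 ± 0.23 SE, limma, adjusted p = 0.0211). In S phase 1 of 23 rose, the helicase subunit Mcm2, with 1.48, 3.80 and 1.24 FPKM in Cfp1-cKO hearts, against 0.538, 0.328 and 0.798 FPKM in WT hearts (log2 difference 0.96 ± 0.29 SE, limma, adjusted p = 0.0475). Of the anaphase-promoting complex and cohesin, 2 of 25 rose, Anapc7 (log2 difference 0.58) and Anapc2 (0.55), and none fell in any list in the main test. After median-of-ratios scaling, the replication inhibitor Gmnn (log2 difference -0.66, adjusted p = 0.0386) and the Cdk inhibitor Cdkn1b (-0.79, adjusted p = 0.0455) were called lower. The medians were 0.64 for the mitosis list, 0.43 for S phase and 0.32 for these subunits, beside 0.35 over all genes. Mcm2 and part of the tested mitosis genes, such as Ckap2, Ckap2l and Pbk, reached the minimum of 1 FPKM only through Cfp1-cKO heart 2. The counts and medians of the mitosis and S phase lists therefore partly describe that heart.

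Among the regulators, 3 of 17 tested genes rose, and among the G1 genes 4 of 15, both near the 21.1% of all genes. They were E2f4, a subunit of the repressor complex of quiescent cells, with 6.76, 8.56 and 8.195 FPKM in Cfp1-cKO hearts, against 3.47, 3.94 and 4.42 FPKM in WT hearts, the activator E2f3 (log2 difference 0.83) and the CCAAT-binding subunit Nfya (0.64). The G1 genes included cyclin D1. Ccnd1, which starts the cycle with Cdk4 and Cdk6, had 5.81, 11.4 and 5.71 FPKM in Cfp1-cKO hearts 1 to 3, against 0.739, 1.71 and 1.498 FPKM in WT hearts 1 to 3 (log2 difference 1.86 ± 0.28 SE, limma, adjusted p = 0.00565). Each Cfp1-cKO heart was above each WT heart for Ccnd1, and it alone of the 11 called genes passed without Cfp1-cKO heart 2 (1.57, adjusted p = 0.0134) and after median-of-ratios scaling (1.54, adjusted p = 0.0173). Ccnd2 (0.71), Ccnd3 (0.65) and Trp53 (0.73) also rose, and they and the other called genes but Ccnd1 lost the call in each of those settings.

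The genes whose pattern was most like that of the members were sought over all 11017 genes, as the difference between Cfp1-cKO heart 2 and the highest of the other 5 libraries on the log2(FPKM + 1) scale. The 10 largest differences were those of Top2a, Ckap2, Pbk, Cks2, Ccna2, Ccnb1, Ndc80, Mki67, Cdk1 and Ckap2l, of which 6 are members and 4 are on the list of other mitosis genes. Since the tested members were among the 11017 genes only through Cfp1-cKO heart 2, this order is a description of that heart and supports nothing about the set. Cks2, a partner of Cdk1, had 3.26, 18.5 and 2.97 FPKM in Cfp1-cKO hearts, against 2.101, 1.99 and 2.09 FPKM in WT hearts. Pbk, a mitotic kinase, had 0.774, 7.401 and 0.403 FPKM in Cfp1-cKO hearts, against 0.221, 0 and 0.434 FPKM in WT hearts.

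Markers of several other cells also differed between Cfp1-cKO heart 2 and the rest. Of 10 fibroblast markers, 8 had their highest value there. Such counts, here and in the next paragraph, stand beside 34.8% of all genes that averaged 0.1 FPKM or more. The 10 fibroblast markers summed to 556, 847 and 515 FPKM in Cfp1-cKO hearts 1 to 3, against 430, 317 and 444 FPKM in WT hearts 1 to 3. Periostin (Postn), made by activated fibroblasts, had 45.2, 113 and 35.3 FPKM in Cfp1-cKO hearts, against 29.9, 13.2 and 31.2 FPKM in WT hearts. The fibroblast markers that went another way were Dcn, highest in WT heart 2 (154 FPKM), and Pdgfra, highest in Cfp1-cKO heart 3 (11.6 FPKM). WT heart 2 was the lowest in both the fibroblast sum and the mitotic sum. Of 10 erythroid markers, 8 were highest in Cfp1-cKO heart 2, with sums of 18.5, 35.9 and 3.71 FPKM in Cfp1-cKO hearts, against 4.89, 9.76 and 3.23 FPKM in WT hearts, while Klf1 was at 0 in all Cfp1-cKO hearts. Of 8 mesothelial markers 6 were highest there, with sums of 28.0, 49.1 and 34.8 FPKM in Cfp1-cKO hearts, against 4.38, 5.81 and 4.84 FPKM in WT hearts. Krt8 (11.4 FPKM) and Krt18 (10.9 FPKM) were instead highest in Cfp1-cKO heart 3. Of 6 adipocyte markers 5 were highest in Cfp1-cKO heart 2, with sums of 47.4, 52.5 and 36.8 FPKM in Cfp1-cKO hearts, against 24.2, 13.4 and 29.3 FPKM in WT hearts. Most of each adipocyte sum came from Cidea, which was highest in Cfp1-cKO heart 1 (47.3 FPKM, against 40.9 FPKM in heart 2). Ucp1 had 0, 8.80 and 0.136 FPKM in Cfp1-cKO hearts 1 to 3, against 0, 0 and 2.95 FPKM in WT hearts 1 to 3. The sums of the fibroblast, erythroid, mesothelial and adipocyte lists were thus highest in the same library as the mitotic genes, though not every marker was.

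The sums of macrophage, endothelial and thymocyte markers were not highest in that heart. Macrophage and monocyte markers summed to 481, 639 and 830 FPKM in Cfp1-cKO hearts, against 92.8, 93.3 and 85.4 FPKM in WT hearts. The sum was highest in Cfp1-cKO heart 3, although 5 of 10 had their highest value in heart 2. Most of each Cfp1-cKO sum came from Lyz2, with 387, 548 and 771 FPKM in Cfp1-cKO hearts 1 to 3, against 42.6, 56.0 and 36.0 FPKM in WT hearts 1 to 3. Within the Cfp1-cKO group, Adgre1, Csf1r, C1qa, C1qb, Mrc1 and Ccr2 were lowest in heart 3, and Cd68, Marco and Siglecf in heart 1. Endothelial markers summed to 684, 662 and 489 FPKM in Cfp1-cKO hearts, against 526, 626 and 449 FPKM in WT hearts. Most of each endothelial sum came from Fabp4, highest in WT heart 2 (359 FPKM), and Ly6c1, highest in Cfp1-cKO heart 1 (180 FPKM). Yet 6 of 10, Cdh5, Kdr, Tie1, Tek, Vwf and Emcn, had their highest value in Cfp1-cKO heart 2. Pecam1 was highest in WT heart 2 and Egfl7 in Cfp1-cKO heart 1. Thymocyte markers summed to 1.06 to 1.23 FPKM in Cfp1-cKO and 0.195 to 0.471 FPKM in WT hearts, with Rag1 at or below 0.00908 FPKM in every library. The sum of the cardiomyocyte markers was lowest in Cfp1-cKO heart 2, at 8789 FPKM. Myh6, Tnnt2, Tnni3, Pln and Ttn were lowest there. Actc1, Myl2, Actn2 and Mybpc3 were lowest in WT heart 2, and Ryr2 in Cfp1-cKO heart 1. The part of these cells in the mitotic level was not tested.

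**Figure D4:**
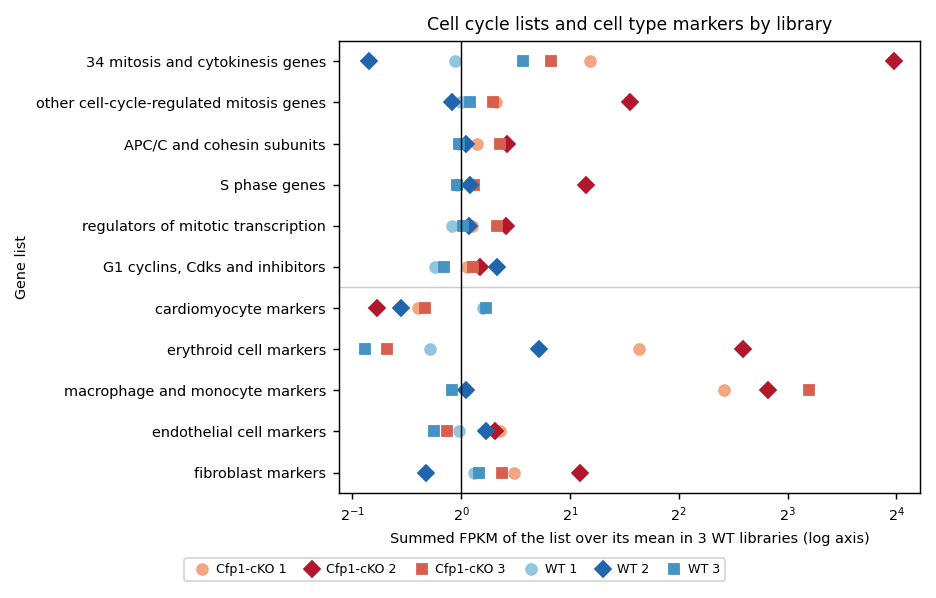
Summed FPKM of 6 cell cycle lists and 5 lists of cell type markers in each library, over the mean of the list in 3 WT hearts (log axis), for Cfp1-cKO hearts (red) and WT hearts (blue). Cfp1-cKO heart 2 is far to the right for the 34 genes (148 FPKM, against 5.23 to 14.0 FPKM in WT hearts) and is set apart for the other mitosis, S phase, erythroid and fibroblast lists, but not for the sums of macrophage or endothelial markers. Most of the macrophage sum of the Cfp1-cKO hearts is Lyz2, and most of each endothelial sum is Fabp4 and Ly6c1.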

How the data were processed

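Whole-heart RNA of mice was sequenced in 3 Cfp1-cKO and 3 WT libraries. The authors deposited FPKM values per gene, with 1 column per library, and the tool that made them is not given in the sources used here. The submitters' processing notes name CASAVA, Bowtie2 2.2.3, HISAT2 2.1.0, TopHat2, HTSeq 0.6.0, DESeq2 and GRCm38. The extraction text given for these libraries speaks of retinas and the study's methods of hearts. Whole fragment counts were recovered from the FPKM values for 99.99% of genes (tolerance 0.02 fragments), and these counts gave the Poisson intervals. Genes that averaged 1 FPKM or more were tested on log2(FPKM + 1) with limma 3.58.1 (R 4.3.3, trended prior variance, Benjamini-Hochberg). A call needed an adjusted p below 0.05 and an absolute log2 difference above 0.5. This scale understates changes of low genes. The 34 members and all lists were chosen with earlier results of these data known. All members are named, together with up to 4 genes per other cell cycle list, by the largest difference among those called, and the 10 genes highest in Cfp1-cKO heart 2. Postn, Sftpc, Klf1, Rag1, Hopx and the other single cell type markers, and Elovl1, Gmnn, Cdkn1b and Ccnb2-ps, were named after their values were seen. Alternatives were another pseudocount and minimum, median-of-ratios scaling, library weights, voom, a replicate block, other thresholds and leaving out each library; fits without Cfp1-cKO heart 2 on fixed gene sets were chosen after seeing the data. Nothing states that libraries are separate animals. The fit was tested on simulated data.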

Additional observations from a re-analysis of the deposited data

How the results depend on the processing

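All log2 differences of single members stayed positive under each alternative that tested them. Of all genes, 83.6% were positive in the main test and 50.5% after median-of-ratios scaling. Under all alternatives but library weights, 0 members were called. Library weights called 16 members, 4399 genes in all and 51 genes of the other cell cycle lists, against 0, 2510 and 11 in the main test. The cause was not tested beyond the weights themselves. All genes called numbered 770 after median-of-ratios scaling (412 higher and 358 lower, or 53.5% higher, against 92.6% in the main test), 743 with an absolute log2 difference above 1 and 1609 with every gene above 0 tested. The list counts under these were 3, 2 and 7. Voom on whole fragments, which adds no pseudocount of 1 FPKM, gave the tested members a median log2 difference of 2.23, against 0.96. Leaving out 1 library at a time gave 502 to 2815 called genes, 1 to 15 on the lists and a median of 0.87 to 1.30 for the tested members; the count moved most without Cfp1-cKO heart 2 (502), Cfp1-cKO heart 3 (1002) or WT heart 1 (696). Without Cfp1-cKO heart 2, no member averaged 1 FPKM, and in fits added after seeing the data 588 genes and 1 list gene were called over the genes of the main test, and 740 and 3 over genes of at least 0.1 FPKM. The medians of 0.87 to 1.30 all come from fits that kept that heart. Without it, over the genes of the main test, the 17 tested members had a median of 0.29, beside 0.32 over all genes. Replicate numbers did not pair the libraries (correlations 0.108, 0.0361 and 0.104 of same-numbered hearts), and a replicate block gave 1749 called genes, 6 on the lists and 0 members.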
